A study of Mus musculus with 8 samples.

Results

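The neighbouring genes Fos, Jdp2 and Batf lie within 1 stretch of mouse chromosome 12 and encode 3 proteins of the AP-1 transcription factor system. Their surroundings were described here in lists of open chromatin from group 2 innate lymphoid cells (ILC2s). Every deposited peak line whose summit lay in a gene body of the 3 genes or within 100 kb of one was taken, on the mm10 build. This gave 89 lines with E47 at 4 h, 76 with E47 at 16 h, 73 with GFP at 4 h and 78 with GFP at 16 h, out of 131575, 109772, 112023 and 134423 lines in the same lists. Overlapping lines were joined, and regions of different lists that overlapped by 1 bp or more were treated as the same region. This gave 41 regions in the locus out of 60835 in all, or 9.42 per 100 kb against 2.24 per 100 kb of the genome. The genome value includes stretches far from genes, whereas the window was set around genes. Within 100 kb of each gene there were 20 regions for Fos, 28 for Jdp2 and 21 for Batf. By the same rule 11 other AP-1 family genes had 5 to 43 each, so this density was not particular to the locus. The window ran from 85373890 to 85809087, a span of 435.198 kb. Fos occupies 85473890 to 85477274, Jdp2 85598656 to 85639878 and Batf 85686720 to 85709087, all on the plus strand, with 121.382 kb between Fos and Jdp2 and 46.842 kb between Jdp2 and Batf.

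ILC2s had been isolated from the thymus of plck-Id1 mice on the C57BL/6 strain, whose transgene name gives the lck promoter as the driver of Id1, an inhibitor of E proteins. After stimulation with ILC2 cytokines they received a retrovirus, were sorted by GFP and were grown further with the same cytokines. The E47 cells carried E47-ER together with GFP, a fusion of the E protein E47 that responds to tamoxifen, and were harvested after 4 h or 16 h of 4-hydroxytamoxifen. The GFP cells, the controls, carried GFP alone and received the drug for the same 4 h or 16 h. Each of these 4 groups had 2 samples, and every group shared the Id1 transgene, the cytokines and the drug. The age of the mice is not given in the labels. Groups follow the sample titles and the transduction labels. The free-text descriptions disagree with them: in each of the 4 groups, replicate 1 is described as holding the MIGR1 vector and replicate 2 as holding MIGR1 with E47-ER. If those descriptions were right, each list would mix both vectors.

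AP-1 proteins share a basic leucine zipper, with which they pair and bind DNA. Fos is an immediate early gene whose product pairs with Jun proteins and activates transcription. Batf encodes a smaller relative that lacks the activation domain of Fos, pairs with Jun proteins, acts together with IRF proteins at composite sites in lymphocytes and is needed for Th17 cells in mice. Jdp2, the Jun dimerization protein 2 gene, encodes a repressor that pairs with Jun proteins and recruits histone deacetylases. E proteins such as E47 bind E-boxes, DNA sites of the form CANNTG, and ATAC-seq reports where the Tn5 transposase can reach DNA, not whether a factor is bound or a gene is transcribed.

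The authors deposited 1 peak list per group, made from its 2 samples, so neither replicate error nor a test can be had. All comparisons describe these 4 lists. Whether the paired samples were separate cultures is not labelled. Fold enrichment is the authors' value for a summit over local background, and for a region it is the highest among its summits. It belongs to its own list. Absence from a list means only that the authors' calling threshold or later filter was not passed, not that the DNA was closed. The list names mark that filter as one by irreproducible discovery rate. Read depth is unknown. All 9 ILC2 markers examined, among them Gata3 and Il1rl1, had a region in or within 1 kb of the gene in each of the 4 lists. Of 7 T cell genes 5 and 4 had one with E47 at 4 h and 16 h, against 4 and 5 with GFP, and Cd8a and Ptcra had none. Of 3 mast cell genes 2 had a region in every list. Of 5 myeloid genes 2 and 1 had one with E47, against 1 and 1 with GFP, and of 3 NK cell genes 1 and 1 with E47, against 0 and 0 with GFP. The part of other cells in the results was not tested. Of the B cell genes, Pax5 had a region in every list, with highest folds of 10.7 and 10.9 with E47 and 10.9 and 12.4 with GFP. Ebf1 had one too, with 12.04 and 11.04 with E47 and 10.6 and 11.4 with GFP. Ms4a1, Cd79a, Csf1r, Lyz2, Ncr1 and Fcer1a had no region in any list. Neither Tcf3, the gene of E47, nor Esr1, the gene of an estrogen receptor, had more regions with E47 than with GFP at either time. Tcf3 had 1 in every list, and Esr1 had 5 with E47 against 6 with GFP at 4 h, and 4 with E47 against 5 with GFP at 16 h. The highest folds of Tcf3 were 16.7 and 17.4 with E47 and 16.1 and 15.6 with GFP. Those of Esr1 were 13.1 and 9.18 with E47 and 16.3 and 17.4 with GFP. Whether the construct shows in these values was not tested.

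The sequences at the gene starts are shown because the open regions over them were called in all 4 lists and hold the summits compared below. They come from RefSeq (GRCm38.p6, the assembly of mm10), where all 3 genes matched, and run from 250 bases before to 50 bases after an annotated start, on the plus strand, which all 3 genes share. Capitals mark matches on either strand to the motifs searched. Of the 3 Jdp2 starts, all in the same open region, only the second is shown, the only one with a match. The Fos window is chr12:85473640-85473939, that of the second Jdp2 start is chr12:85599166-85599465, and that of Batf is chr12:85686470-85686769.
Fos: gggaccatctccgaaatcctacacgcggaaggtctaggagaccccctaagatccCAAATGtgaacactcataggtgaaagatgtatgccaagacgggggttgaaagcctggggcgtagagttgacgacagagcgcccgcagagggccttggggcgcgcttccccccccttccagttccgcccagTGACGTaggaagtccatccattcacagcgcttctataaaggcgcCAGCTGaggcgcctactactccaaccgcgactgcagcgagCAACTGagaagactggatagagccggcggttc
Jdp2: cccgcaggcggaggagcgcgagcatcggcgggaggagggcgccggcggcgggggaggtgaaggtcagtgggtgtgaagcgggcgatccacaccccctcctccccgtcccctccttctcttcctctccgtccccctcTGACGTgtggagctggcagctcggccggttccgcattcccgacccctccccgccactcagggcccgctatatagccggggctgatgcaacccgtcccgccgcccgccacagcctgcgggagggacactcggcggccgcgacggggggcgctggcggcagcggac
Batf: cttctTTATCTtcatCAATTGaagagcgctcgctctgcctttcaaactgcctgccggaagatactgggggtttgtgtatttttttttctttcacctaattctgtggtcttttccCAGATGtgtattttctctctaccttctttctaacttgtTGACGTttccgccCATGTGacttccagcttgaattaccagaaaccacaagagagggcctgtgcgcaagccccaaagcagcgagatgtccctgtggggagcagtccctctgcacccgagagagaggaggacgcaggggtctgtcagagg

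The motifs searched were the E-box CANNTG with its forms CAGCTG and CAGGTG, the AP-1 sites TGACTCA and TGAGTCA, the CRE core TGACGT (the cyclic AMP response element), the CArG box of serum response factor, the STAT site TTCNNNGAA and the GATA site AGATAA, on both strands. CAGCTG and CAGGTG are forms of CANNTG, so their matches coincide. TGACTCA and TGAGTCA are each other's sequence on the opposite strand, so on both strands they match the same sites. The Fos window held 3 E-boxes, of which the one at position -22 from the start read CAGCTG, and 1 CRE core at -66. The Batf window held 3 E-boxes at -235, -136 and -85, 1 CRE core at -98 and 1 GATA site at -245 on the minus strand. The second Jdp2 start held 1 CRE core at -114 and no E-box by these letters, and the other Jdp2 starts, at 85599105 and 85600018 in the same open region, held no match to any of the motifs. Of the 32841 RefSeq promoters of the same length without ambiguous bases, 72.3% held CANNTG, 16.3% CAGCTG, 20.2% CAGGTG, 5.2% each AP-1 form, 7.51% the CRE core, 1.63% the CArG box, 8.3% the STAT site and 11.2% the GATA site. A CRE core was thus present at the Fos start, at the Batf start and at 1 of the 3 Jdp2 starts. These are matches of letters, and no binding was measured.

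The E47 lists called 33 regions of the locus at 4 h and 29 at 16 h, against 29 and 33 in the GFP lists. In all 4 lists together 21 of the 41 regions were called (51.2%), against 48.8% of all regions of the genome. By the nearest of the 3 genes, 8 of 11 regions of Batf were in all 4 lists, 7 of 17 of Jdp2 and 6 of 13 of Fos. Counted within 100 kb of each gene, where the windows overlap, 12 of 21 regions of Batf (57.1%), 14 of 28 of Jdp2 (50%) and 9 of 20 of Fos (45%) were in all 4 lists, and no difference between the genes was tested. Within Batf and 1 kb to either side, 5 of 6 regions were in all 4 lists, and in the 44.8 kb between Jdp2 and Batf 1 of 6 was. The 58.974 kb stretch between 85383263 and 85442238, upstream of Fos, held no call in any list, and the 99 kb after Batf held 2 regions, of which 1 covered the start of the next gene, Flvcr2.

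**Figure D1:**
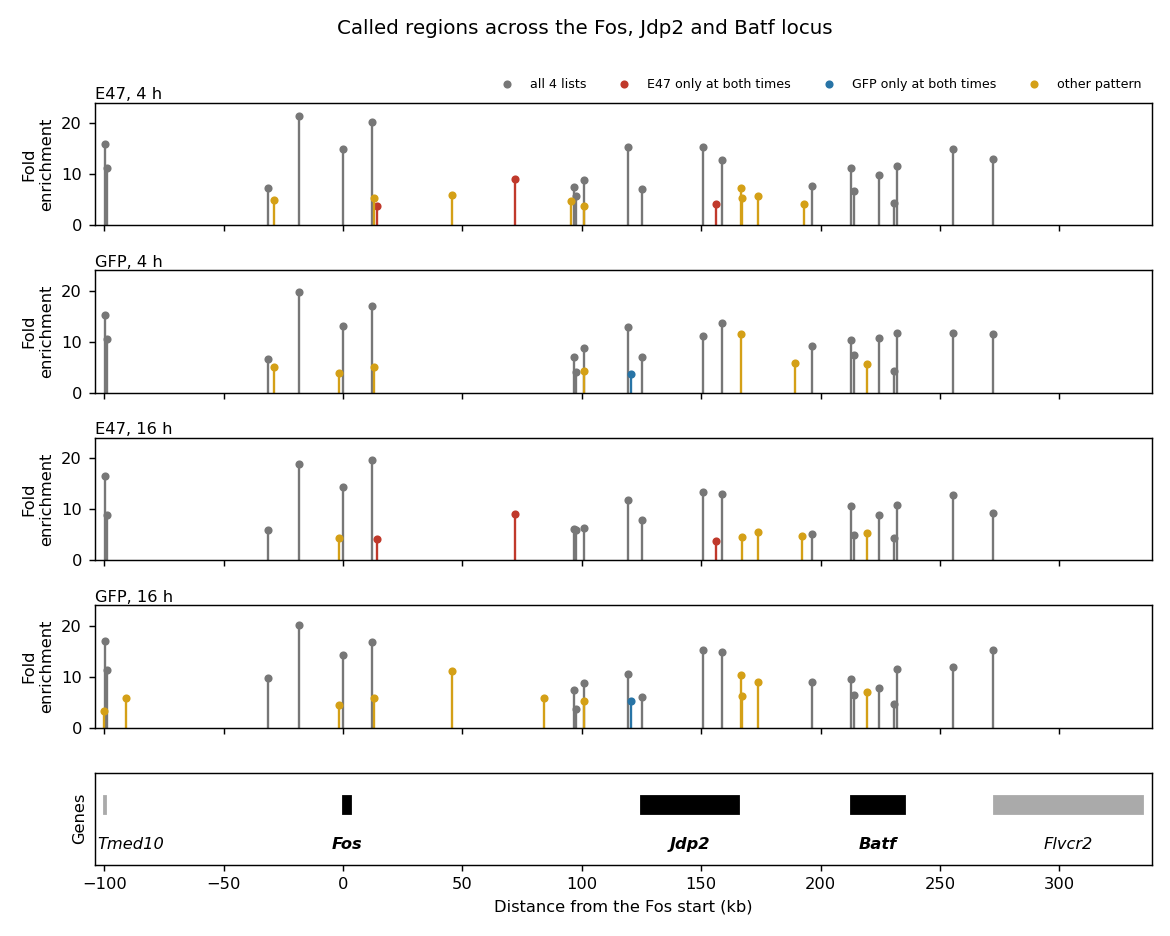
Fold enrichment (vertical axis, authors' value) of each called region against the distance of its summit from the Fos start in kb, 1 panel per list, with protein-coding genes at the bottom; colours give the lists in which a region was called, and gene bars are cut at the window edges. The grey stems of the 21 regions called in all 4 lists recur in each panel, whereas the 3 red stems stand in the E47 panels and the single blue one in the GFP panels.

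The open region over the Fos start (chromosome 12, 85473447 to 85474450) had fold enrichments of 14.97 and 14.35 with E47 at 4 h and 16 h, against 13.04 and 14.31 with GFP. These folds stood at percentiles 66.9 and 69.1 with E47 and 62.6 and 62.6 with GFP among the 29667 regions called in all 4 lists. In these folds the vectors were level at 16 h and differed by 1.15 times at 4 h. Set against the median ratio of all shared regions, the log2 ratios were alike, 0.107 at 4 h and 0.095 at 16 h. Among the regions called in all 4 lists they stood at percentiles 67.6 at 4 h and 65.3 at 16 h. Its main summit lay 28 and 31 bp before the start with E47 and 40 and 17 bp before it with GFP, beside the CAGCTG E-box printed above. A second summit stood 303 and 312 bp before the start with E47 and 294 and 312 bp before it with GFP, with folds of 12.05 and 13.69 with E47 against 12.32 and 11.96 with GFP.

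The region over the Batf start (85686182 to 85687179) had folds of 11.3 and 10.6 with E47 and of 10.3 and 9.50 with GFP. Both E47 values were thus above both GFP values, by 1.102 times at 4 h and 1.119 times at 16 h. Among the regions called in all 4 lists these ratios stood at percentiles 57.6 at 4 h and 86.8 at 16 h. The folds stood at percentiles 45.06 and 48.3 with E47 and 44.98 and 30.1 with GFP. Its main summit lay at 27 and 24 bp before the start with E47 and at 19 and 26 bp before it with GFP, a spread of 8 bp over the 4 lists. A further summit 401 and 379 bp after the start, with folds of 3.76 and 3.72, was listed with E47 and had no GFP summit within 150 bp at either time.

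The region over the Jdp2 starts (85598568 to 85600099) was the widest of the locus at 1532 bp and covered the 3 starts of the promoter table and the first base of the gene body, 85598656, yet its folds were lower than those of the other two genes, at 7.08 and 7.81 with E47 and 6.95 and 5.96 with GFP. Among the regions called in all 4 lists these stood at percentiles 14.7 and 26.2 with E47 and 18.2 and 7.93 with GFP. With E47 the value was nearly that of GFP at 4 h (ratio 1.02) and 1.31 times that of GFP at 16 h. Set against the median ratio of all shared regions, the 16 h value was 0.48 on the log2 scale, at percentile 97.05 of the 29667 regions called in all 4 lists, while the 4 h value was -0.07, at percentile 35.5. The summit with the highest −log10 p lay at 85599281 and 85599287 with E47, and at 85599257 and 85599374 with GFP, a spread of 117 bp. The E47 summits lay between the GFP summits. The E47 summits and the GFP 4 h summit lay within 50 bp of the CRE core that begins at 85599302, and GFP at 16 h listed a summit there too, at 85599260 with a fold of 5.80.

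**Figure D2:**
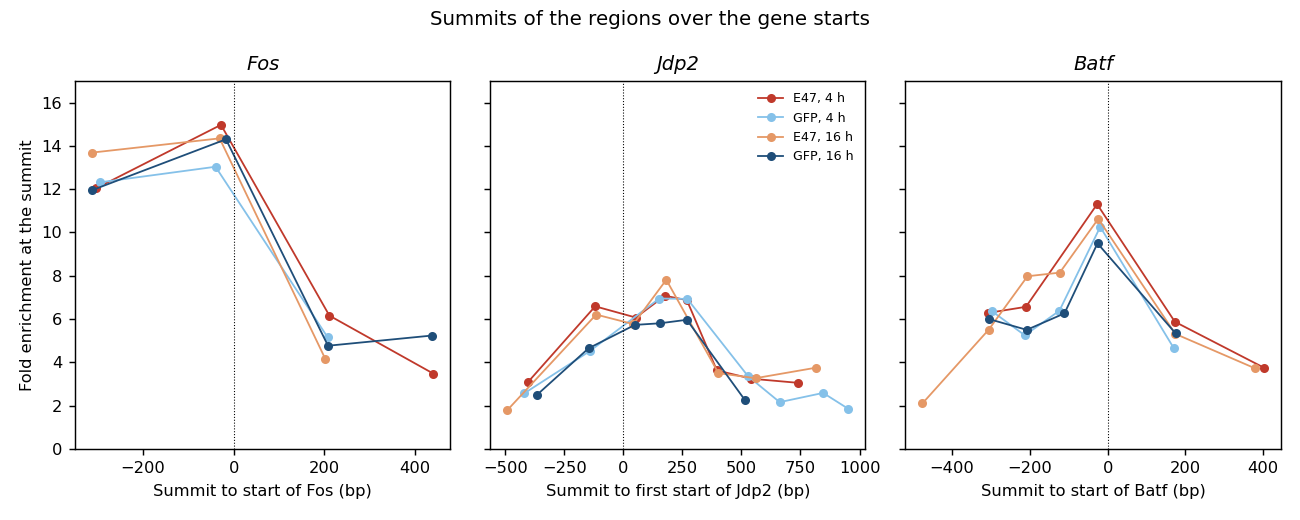
Fold enrichment at each listed summit (vertical axis, authors' value) against its distance from the gene start in bp, for the regions over the starts of Fos, Jdp2 (from the first annotated start) and Batf; lines join the summits of 1 list. The main summits of Fos and Batf coincide in the 4 lists at folds of 13.04 to 14.97 and of 9.50 to 11.3. Jdp2 has 6 to 8 listed summits per list, with folds from 1.79 to 7.81.

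The 2 regions with the highest mean fold were outside the bodies of the 3 genes. The highest mean fold belonged to a region 18.4 kb upstream of Fos (85454962 to 85455817), inside the long noncoding RNA gene Gm38543, with folds of 21.4 and 18.8 with E47 and 19.7 and 20.1 with GFP. Next came a region 12.2 kb downstream of the Fos start (85485783 to 85486492), with 20.2 and 19.7 with E47 against 17.05 and 16.7 with GFP. It was higher with E47 at both times by 1.18 and 1.17 times, and it was among the 3 regions with the highest mean ratio, at percentile 90.1. The region over the start of Tmed10, at the edge of the window, had 15.9 and 16.5 with E47 and 15.2 and 17.02 with GFP.

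Jdp2 held 3 further regions inside the gene. The strongest, 24.7 kb downstream of the nearest Jdp2 start (85624190 to 85625172), had folds of 15.4 and 13.4 with E47 and 11.1 and 15.3 with GFP, so the vectors were apart at 4 h (1.39 times, percentile 92.1) and in the opposite order at 16 h (0.88 times, percentile 36.2). Its main summit stayed within 8 bp in the 4 lists, while the listed summits numbered 5 and 7 with E47 against 3 and 3 with GFP. A neighbour at 32.5 kb (85631951 to 85632894) had 12.7 and 13.0 with E47 and 13.7 and 14.8 with GFP, with main summits within 1 bp of each other.

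Between these 2 lay a region called with E47 at both times and with GFP at neither (85629544 to 85630178), 29.9 kb downstream of the nearest Jdp2 start. Its folds were 4.24 at 4 h and 3.84 at 16 h, at percentiles 31.7 and 17.5 of −log10 p in the E47 lists. The nearest GFP region ended or began 1773 bp away at 4 h and 2017 bp away at 16 h.

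A second region of this kind lay 71.9 kb downstream of the Fos start and 53.3 kb upstream of Jdp2 (85545676 to 85546291). It had folds of 9.13 and 9.17 with E47 and no GFP call within 23.952 kb at 4 h or 11.555 kb at 16 h. Its mean percentile of 45.1 ranked it 215 of the 2088 regions of the genome called with E47 only at both times, whose median was 21.2. The third lay 14.0 kb downstream of the Fos start (85487847 to 85488009), was 163 bp wide and weak, with folds of 3.80 and 4.29 and percentiles of 10.3 and 13.1, and the nearest GFP regions were 799 and 801 bp away.

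A single region showed the reverse pattern. It lay 4.52 kb upstream of the first Jdp2 start (85594470 to 85594764), with GFP folds of 3.66 and 5.26, at percentiles 13.6 and 47.5 of the 4 h and 16 h lists, and no E47 call within 997 bp at 4 h or 1032 bp at 16 h. An open region 5.98 kb upstream of Jdp2, in all 4 lists, adjoined it and had folds of 15.4 and 11.8 with E47 against 12.9 and 10.6 with GFP. The stretch from 5.98 kb upstream of Jdp2 to 32.5 kb inside it thus held both directions.

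In counts, 3 of 41 regions (7.32%) were called with E47 only at both times, against 3.43% of all regions, and 1 (2.44%) with GFP only at both times, against 4.56% of all regions. These are counts of 3 regions and 1 region, and their distance from the background was not tested. Which vector had more such regions depended on the setting: with lists of equal length there were 2 with E47 only and 2 with GFP only among 36 regions (5.56% each, background 4.74% and 5.01%), and among the 21 regions above the median of their list 0 with E47 only (background 3.08%) and 2 with GFP only (9.52%, background 4.01%). The other ways of pairing the lists gave 1 region in both 4 h lists alone (background 1.28%), 0 in both 16 h lists alone (1.08%), 1 in the pair of E47 at 4 h with GFP at 16 h (4.57%) and 0 in the pair of E47 at 16 h with GFP at 4 h (0.334%).

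At 4 h, 8 of the 37 regions in either list were called with E47 only (21.6%, background 22.7%) and 4 with GFP only (10.8%, background 9.73%). At 16 h, 4 of 37 were called with E47 only (10.8%, background 8.38%) and 8 with GFP only (21.6%, background 29.6%). The longer list had more regions of its own at each time, as over the whole genome, where the lists held 49811 regions with E47 and 42665 with GFP at 4 h, and 40649 with E47 and 52846 with GFP at 16 h. The length of the lists and the vector cannot be told apart in these counts.

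**Figure D3:**
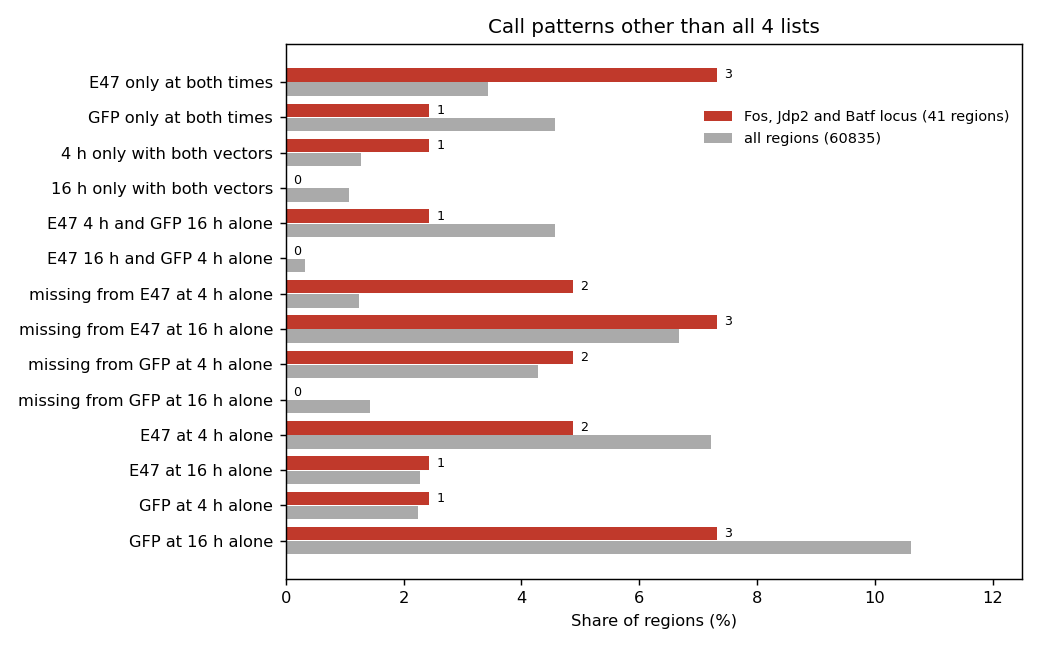
Share of regions (horizontal axis, percent) with each call pattern other than all 4 lists, in the locus (red, with the number of regions) and over all regions (grey). Most locus bars rest on 1 to 3 regions, and the pattern called with E47 only at both times is at 7.32% against 3.43%.

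The 6 regions from the end of Jdp2 to 19.8 kb upstream of Batf were each called in part of the lists. At 0.873 kb past the gene end, a region (85640484 to 85640937) had a fold of 7.40 with E47 at 4 h and was not called with E47 at 16 h, against 11.5 and 10.4 with GFP. The nearest E47 region at 16 h lay 42 bp from it. That adjoining region (85640958 to 85641226) had 5.37 and 4.61 with E47 and 6.32 with GFP at 16 h, and was not called with GFP at 4 h. Another, 7.683 kb past the gene end (85647361 to 85647663), had 5.66 and 5.61 with E47 and 8.90 with GFP at 16 h alone. Over the locus, 3 regions were missing from E47 at 16 h alone (background 6.67%). They lay 42, 75 and 424 bp from the nearest E47 region at 16 h. At 4 h, 2 were missing from E47 alone (1.24%) and 2 from GFP alone (4.29%). From GFP at 16 h alone, 0 were missing (1.44%).

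Both regions missing from E47 at 4 h alone were near the other genes. One lay 1.60 kb upstream of Fos (85472189 to 85472414), with folds of 4.36 with E47 at 16 h and of 3.83 and 4.47 with GFP. The other lay inside Batf, 6.72 kb from its start (85693238 to 85693658), with 5.38 with E47 at 16 h and 5.64 and 7.07 with GFP.

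The gene body of Batf held 4 regions called in all 4 lists, of which the one 1.33 kb from the start is given below with the lowest ratios. A region 11.6 kb from the start (85698164 to 85698603) had folds of 9.91 and 8.88 with E47 and 10.7 and 7.88 with GFP, so the order of the vectors differed between the times. Near the gene end, a region 19.0 kb from the start (85704955 to 85706124) had 11.7 and 10.8 with E47 and 11.6 and 11.5 with GFP. Its small neighbour (85704630 to 85704888) had 4.48 and 4.36 with E47 and 4.26 and 4.72 with GFP, the lowest mean fold of the 21 regions in all 4 lists.

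The noncoding RNA gene Gm32348, upstream of Jdp2, held 4 regions in 85569824 to 85586552. Besides the one with the highest ratio, given below, a region at 85570115 to 85570937 had folds of 7.60 and 6.17 with E47 and 6.98 and 7.40 with GFP, and one at 85574837 to 85575293 had 8.85 and 6.27 with E47 and 8.81 and 8.76 with GFP. A weaker one (85574537 to 85574783) had 3.73 with E47 at 4 h and none at 16 h, against 4.36 and 5.25 with GFP. It adjoined the region at 85574837 to 85575293, and an E47 region at 16 h lay 75 bp from it. In all 3 the E47 value was lower than the GFP value at 16 h or was not called.

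Downstream of Fos, a region 13.1 kb from the start (85486916 to 85487048) was likewise missing with E47 at 16 h, with a fold of 5.31 with E47 at 4 h against 5.15 and 5.92 with GFP. Upstream of Fos, a region at 29.0 kb (85444715 to 85444910) was called at 4 h with both vectors, with folds of 4.94 with E47 and 5.05 with GFP, and at 16 h with neither.

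Regions called in 1 list alone were weak. There were 2 with E47 at 4 h (background 7.21%), 1 with E47 at 16 h (2.28%) and 1 with GFP at 4 h (2.24%). With GFP at 16 h there were 3 (10.6%), of which 1, beside the Tmed10 start, lay 56 to 69 bp from regions of the other lists. By −log10 p the strongest of each were 29.5 kb upstream of Jdp2 with E47 at 4 h (fold 4.70, percentile 29.3), 20.6 kb upstream of Batf with E47 at 16 h (fold 4.81, percentile 8.35), 23.6 kb upstream of Batf with GFP at 4 h (fold 5.91, percentile 17.4) and 90.9 kb upstream of Fos with GFP at 16 h (fold 5.91, percentile 6.64). By number of lists, the median of the mean percentile was 6.64 for the 7 regions in 1 list, 25.1 for the 6 in 2, 28.5 for the 7 in 3 and 65.1 for the 21 in all 4. Over all regions the same medians were 9.59, 18.7, 27.4 and 64.6.

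The fold enrichment of shared regions was then compared. A ratio of E47 over GFP was divided by the median ratio of all shared regions at that time, 1.07 at 4 h and 0.939 at 16 h, and a ratio past 1.5 times in either direction was counted. At 4 h, none of 25 shared regions of the locus was over 1.5 times higher with E47 (background 2.63%) and 1 was over 1.5 times lower (2.34%), the region just past the end of Jdp2 described above, at -0.73 on the log2 scale. At 16 h, 1 of 25 was higher (1.97%) and 3 were lower (5.64%). The locus median of the log2 ratio was -0.02 at both times. Of the 21 regions in all 4 lists, 6 had a ratio above the median at both times (background 28.3%), 7 below it at both times (26.5%) and 8 changed side. None of them was past 1.5 times in the same direction at both times, for which the background is 0.536% higher and 0.651% lower.

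The highest mean ratio was that of a region 27.6 kb upstream of Jdp2, inside the noncoding RNA gene Gm32348 (85571328 to 85571747). Its folds were 5.70 and 5.88 with E47 against 4.13 and 3.67 with GFP, so both E47 values were above both GFP values. The log2 ratios were 0.37 at 4 h and 0.77 at 16 h, and their mean was at percentile 98.9 of the 29667 regions. A region 42.8 kb past the Batf start (85729157 to 85730333) had 15.01 and 12.8 with E47 and 11.7 and 11.96 with GFP, with percentile 89.5. Between these in mean ratio stood the region 12.2 kb downstream of the Fos start given above.

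The lowest mean ratio was that of a region 16.4 kb upstream of Batf (85669910 to 85670393). It had folds of 7.65 and 5.21 with E47 against 9.15 and 9.06 with GFP, so both E47 values were below both GFP values, with log2 ratios of -0.35 and -0.71 and percentile 2.54. The region over the Flvcr2 start (85745794 to 85746623) had 13.0 and 9.37 with E47 and 11.5 and 15.3 with GFP, and one inside Batf, 1.33 kb from its start (85687946 to 85688184), had 6.66 and 4.96 with E47 and 7.44 and 6.46 with GFP. Besides the first of these and that of Flvcr2, 1 more region past 1.5 times lower at 16 h lay 31.5 kb upstream of Fos, with 7.35 and 5.96 with E47 against 6.56 and 9.68 with GFP. These extremes were picked from 21 regions and carry no test.

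**Figure D4:**
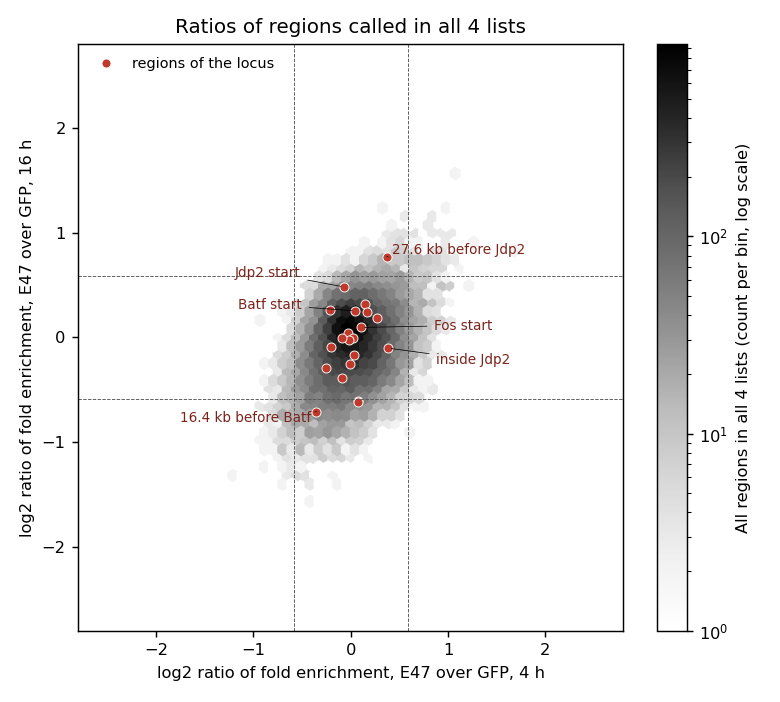
The log2 ratio of fold enrichment, E47 over GFP and relative to the median of all shared regions, at 4 h (horizontal axis) and 16 h (vertical axis) for regions called in all 4 lists; red points are the 21 regions of the locus, grey bins all 29667 regions, and dashed lines mark 1.5 times. The locus points lie within the grey cloud, with the region 27.6 kb upstream of Jdp2 at 0.37 and 0.77 and the region 16.4 kb upstream of Batf at -0.35 and -0.71.

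The positions of the summits were close to the same in the 4 lists. For the 21 regions in all 4 lists the summit with the highest −log10 p differed by 1 to 174 bp between lists, with a median of 12 bp, and in 16 regions by 50 bp or less. Taken singly, 53 of the 89 summits with E47 at 4 h had a partner within 150 bp in each of the other lists (59.6%, background 63.6%). Another 12 of the 89 (13.5%, background 4.65%) had a partner with E47 at 16 h and none in either GFP list, and 5 of the 73 summits with GFP at 4 h (6.85%, background 5.61%) had one with GFP at 16 h and none in either E47 list. Of the 12, 7 belonged to the 3 regions already named as called with E47 only, 3 of them to each of the stronger pair, and 5 were minor summits within regions called in all 4 lists, with folds of 1.78 to 3.76. Summits of 1 region share their reads and are not independent.

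The same rule was applied to 11 other AP-1 family genes, among them Jun, Junb, Fosl2, Batf3 and Atf3. Around them 221 regions were called, of which 139 (62.9%) were in all 4 lists, 3 (1.36%) were called with E47 only at both times and 6 (2.71%) with GFP only at both times. Regions called with E47 only at both times occurred around 3 of these 11 genes, Jun, Junb and Jund, with 1 each, and regions called with GFP only around 4, Jun, Jund, Fosl2 and Batf3. Each of the 2 shares for a single vector rests on 6 regions or fewer, and their difference from those of the locus was not tested.

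The window itself was set by distance. The region just inside it before Fos lay 99.883 kb from the gene, with a fold of 3.28 with GFP at 16 h alone. It adjoined the region over the Tmed10 start, and regions of the other lists lay 56 to 69 bp from it. The one just outside the window lay 104.711 kb from Fos, with a fold of 5.18 with E47 at 4 h alone. After Batf the last region inside was that of Flvcr2 at 36.849 kb, and the next lay 109.531 kb away and was called in all 4 lists.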

How the data were processed

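ATAC-seq was carried out on 8 samples in 4 groups of 2. The submitters' processing notes name Bowtie2, cutadapt, DiffBind and MACS2 and the build mm10, without versions. The authors deposited a peak list for each group, which its name marks as filtered by irreproducible discovery rate. Per line they give a score of 540 to 1000, a ratio (fold enrichment) and the −log10 of p, as deposited by the authors. The score was not used.

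Overlapping lines within a list were merged, and regions overlapping by 1 bp or more across lists were joined. Percentiles are of a region's highest −log10 p among the regions of its list, except those of folds and ratios, which are among regions in all 4 lists. Gene positions and promoter sequences came from RefSeq tables of GRCm38.p6, without exons. The regions named were all those called by 1 vector only at both times, those over gene starts, the 5 with the highest mean fold, the 3 with the highest and the 3 with the lowest mean ratio among regions in all lists, and the strongest in each list alone. Other regions were chosen after their values were seen. Members and lists were chosen with earlier results of these data known. The code was tested on simulated data. Python 3.11.15, pandas 2.3.3, numpy 2.4.6 and matplotlib 3.10.9 were used. The alternatives were another overlap, a gap of 200 bp, equal list length, stronger regions, single summits, 50 kb or 200 kb of flank, the fold of the strongest summit and undivided ratios.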

Additional observations from a re-analysis of the deposited data

Results flagged for a closer look

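A region between Fos and Jdp2 (chromosome 12, 85519534 to 85519910), 45.8 kb downstream of the Fos start, was called with the opposite vector at each time. At 4 h it was called with E47, with a fold enrichment of 5.99 at percentile 7.21 of that list, and not with GFP. At 16 h it was not called with E47 and was called with GFP, with a fold of 11.1 at percentile 43.9. With 1 list per group this turn was not tested. Over all regions 4.57% had this pattern, which joins the 2 longest lists.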

How the results depend on the processing

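No paired analysis was possible because each group is represented by 1 list and the result comes from no test. For the same reason no replicate could be left out. An overlap of 50% of the shorter region changed none of the counts. With lines within 200 bp joined, 5 regions in place of 8 were called with GFP only at 16 h. The share over all regions is not given for that joining. Of the 8, those at 85373890 to 85374072, 85574537 to 85574783 and 85640484 to 85640937 lay 69, 75 and 42 bp from an E47 region at 16 h. With lists of equal length (40649 regions each), 4 of 36 were called with E47 only at 4 h (12.2% of all regions in that setting), 5 with GFP only at 16 h (15.1%) and 2 with GFP only at both times (5.01%), and the weak region 14.0 kb downstream of the Fos start was called in 1 E47 list in place of 2. Among regions above the median of their list, 0 of 21 were called with E47 only (3.08% of all such regions) and 2 with GFP only (4.01%) at both times. At 4 h, 1 was called with E47 only (16.4%) and 2 with GFP only (4.87%), and at 16 h 1 (4.21%) and 5 (24.3%). Equal length and the median cut both drop weaker calls before lists are compared. A region called with 1 vector only there may thus have a weaker call with the other vector in the full lists. Within 200 kb of the genes, 3 were called with E47 only and 2 with GFP only at both times. Within 50 kb these were 2 and 1. The shares over all regions do not depend on the flank and were 3.43% and 4.56%. As single summits, 12 were called with E47 alone (4.65% over the genome) and 5 with GFP alone (5.61%) at both times, 27 with E47 (24.3%) and 13 with GFP (12.1%) at 4 h, 15 with E47 (13.1%) and 19 with GFP (28.4%) at 16 h, and 53 were in all lists (63.6%). The cause of these changes was not tested, with 2 exceptions that hold by construction. Summits outnumber regions, and joining within 200 bp merges close neighbours. Counts past 1.5 times were 1 at 4 h and 4 to 5 at 16 h with the other overlap, the 200 bp gap, 50 kb or 200 kb of flank, the fold of the strongest summit, and ratios not divided by the median. They were not computed for equal list length, regions above the median or single summits. Depth is unknown and limits every statement on a missing call.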
